A study of Mus musculus with 8 samples.

Results

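The subunits of the respiratory chain and of the ATP synthase that are encoded in the nucleus were followed in dental pulp RNA from mouse first molars at postnatal day 7 (P7). Members were all protein-coding genes of the expression table whose symbol starts with Nduf, Sdh, Uqcr, Cox4 to Cox8 or Atp5, without the assembly factors named Ndufaf and Sdhaf. The rule gave 85 symbols in the annotation, of which 80 are among the 12148 genes of the table; *Cox6a2*, *Cox7b2*, *Cox8b*, *Cox8c* and *Ndufs3* were not analysed here, nor were the 13 subunits encoded in the mitochondrial genome. By complex, 35 members belong to complex I, 4 to complex II, 8 to complex III, 14 to complex IV and 16 to complex V, which makes 77 subunits. *Ndufa4* was counted with complex IV, where its protein is now placed, and 3 members that are not constitutive subunits (*Ndufa4l2*, *Cox7a2l* and *Atp5s*) were described apart.

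The 8 libraries comprise 4 of Osterix-Cre control pulp and 4 of *Tgfbr2cko* pulp. Both groups carry Cre recombinase driven by the Osterix promoter, whose activity in the tooth lies in mesenchyme and odontoblasts, and the *Tgfbr2cko* mice in addition carry *Tgfbr2*, the type II receptor for TGF-β, in a form that Cre deletes. Cells of the pulp without Cre activity keep the receptor. Left and right molars were combined, the RNA was amplified from a low input, and the deposited values are log2 counts scaled to library size (log2 CPM), on which a step of 1 is a doubling. Libraries are called by the number in their labels, with Osterix-Cre from 49 to 52 and *Tgfbr2cko* from 53 to 56. The sources used here do not say whether each library is 1 animal, so p-values measure the spread between these libraries. Sexes were balanced over the experiments as a whole, and the sex of each library was not given.

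Between 8682872 and 13539670 reads per library were counted on the 12148 genes. *Tgfbr2* itself overlapped between the genotypes. Its log2 CPM was 7.16, 7.62, 7.64 and 7.52 in control pulp and 7.02, 7.00, 7.16 and 7.61 in mutant pulp (difference -0.29, SE 0.17, limma-trend adjusted p = 0.79, exact permutation p = 0.143). The libraries labelled *Tgfbr2cko* 55 and 56 lay within the control range, and the difference was -0.42 without library 56 (adjusted p = 0.295) and -0.39 without library 49 (adjusted p = 0.569), both with an unadjusted p under 0.05. The exons that the deletion removes are not given in the sources used here. Library 56 also stood apart in *Amelx*, *Ambn* and *Enam*, which encode enamel matrix proteins and took 19.2% of its reads against 0.334% to 2.87% in the other 7 libraries. The 6 odontoblast markers checked were all present in the table, and 5 of them had a lower mean in mutant pulp.

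The respiratory chain passes electrons from NADH (complex I, NADH dehydrogenase) or succinate (complex II, succinate dehydrogenase) through ubiquinone to complex III (the cytochrome bc1 complex), and from there by cytochrome c to complex IV (cytochrome c oxidase), which reduces oxygen to water. Complexes I, III and IV pump protons across the inner mitochondrial membrane, and complex V, the ATP synthase, lets them flow back to make ATP. Most subunits come from nuclear genes that are expressed in nearly every cell, often from short transcripts and from promoters with sites for NRF1, GABPA (an ETS factor), YY1 and the estrogen-related receptors. A few subunits have tissue isoforms, and a few related proteins adjust the chain, such as *Ndufa4l2*, a target of hypoxia-inducible factor that lowers complex I activity and is known as a marker of pericytes, and *Cox7a2l*, which links complexes III and IV into supercomplexes.

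The genes whose mutant values lay below every control value, *Ndufa4l2* and *Cox7a2l*, are both relatives of a complex IV subunit. Their coding sequences are shown beside those of the subunits because the names are close and the values are not. The stretches below are the best local alignment of the coding sequences of each pair in the GENCODE M21 principal transcripts (GRCm38), 5′ to 3′, and capitals mark bases that differ or have no partner in the other gene. The coordinates after each name are those of the whole gene, not of the stretch.
Ndufa4l2, chr10:127514967-127517154 (+): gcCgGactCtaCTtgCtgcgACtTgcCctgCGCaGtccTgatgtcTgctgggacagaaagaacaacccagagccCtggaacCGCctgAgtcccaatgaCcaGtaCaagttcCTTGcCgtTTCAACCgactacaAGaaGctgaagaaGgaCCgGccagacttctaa
Ndufa4, chr6:11900292-11907497 (-): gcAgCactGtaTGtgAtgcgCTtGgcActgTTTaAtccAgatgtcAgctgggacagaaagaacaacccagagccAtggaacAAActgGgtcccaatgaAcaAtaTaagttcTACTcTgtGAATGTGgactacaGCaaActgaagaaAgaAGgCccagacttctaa
Cox7a2l, chr17:83501918-83517330 (-): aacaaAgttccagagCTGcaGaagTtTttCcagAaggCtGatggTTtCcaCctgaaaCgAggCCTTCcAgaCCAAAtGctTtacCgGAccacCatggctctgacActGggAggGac
Cox7a2, chr9:79755361-79759878 (-): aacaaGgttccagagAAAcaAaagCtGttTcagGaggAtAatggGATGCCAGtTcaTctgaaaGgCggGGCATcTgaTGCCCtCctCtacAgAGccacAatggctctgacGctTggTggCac
The *Ndufa4l2* stretch covers bases 100 to 264 of its 264 coding bases and the *Ndufa4* stretch bases 85 to 249 of 249, and 122 of the 165 aligned pairs (73.9%) are identical. For *Cox7a2l* the aligned stretch is bases 169 to 284 of 336, against bases 76 to 197 of 252 in *Cox7a2*, with 78 of 116 aligned pairs (67.2%) identical. In the *Ndufa4l2* and *Ndufa4* stretches the differences lie on both sides of a longer identical run, and in the *Cox7a2l* and *Cox7a2* stretches they are spread along the length.

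In the controls the subunits were expressed at levels that differed widely within each complex. Levels between genes are given as CPM per kilobase of the principal transcript (CPM per kb, mean of the 4 control libraries). Complex III had the highest median, 372 CPM per kb over its 8 subunits, followed by complex V with 330 (n = 16), complex IV with 278 (n = 14), complex II with 152 (n = 4) and complex I with 151 (n = 35). The highest level of all was that of *Cox8a*, a small subunit of cytochrome c oxidase, at 899 CPM per kb ± 162 (SD, n = 4). *Cox4i1*, the common form of the subunit that sets the response of complex IV to ATP, was next at 832 ± 155, less than 1 SD away. *Atp5b*, the catalytic beta subunit of the ATP synthase, led complex V at 755 ± 61.8, and *Uqcr11* led complex III at 654 ± 128. In complex I the leader was *Ndufa1*, an accessory subunit of the membrane arm encoded on the X chromosome, at 475 ± 87.1, and in complex II it was the iron-sulfur subunit *Sdhb* at 235 ± 24.1. The lowest subunit in complex I was *Ndufs1*, the large iron-sulfur subunit of the electron input arm, at 28.9, and the lowest of all was *Cox7a1*, the heart and skeletal muscle isoform, at 3.55. Members whose copies could draw reads are less sure: 14 members had a pseudogene transcript of at least 97% identity over at least 100 bases, *Atp5g2* among them with copies at 100% identity, and 17 had at least 5% of their exon bases inside exons of another gene.

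**Figure D1:**
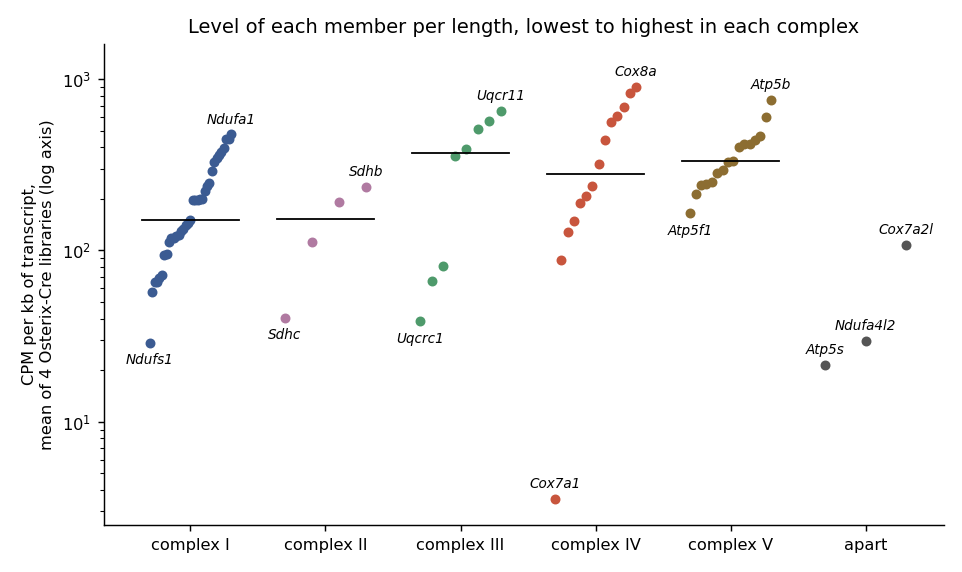
Mean level of each of the 80 members in the 4 Osterix-Cre libraries, in CPM per kb of transcript on a log axis, ordered from lowest to highest within each complex; black bars are the medians of complexes I to V. Cox8a sits highest at 899 and Cox7a1 lowest at 3.55, and the 3 members described apart lie between 21.5 and 107.

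The comparison asked whether loss of *Tgfbr2* in the pulp mesenchyme went with a change in these genes. None of the 77 subunits of complexes I to V passed an unadjusted p of 0.05 in the limma-trend test. The lowest p among them was 0.168, for *Ndufb10*, and their log2 fold changes ran from -0.25 to 0.17 with a median of -0.06. Over all 80 members, 0 were higher at p under 0.05, where 3.3% of the 12148 genes were, and 2 (2.5%) were lower, where 5.08% of all genes were. At p under 0.05 with a change of at least 1.5-fold, the definition of an altered gene in this study, 0 members were higher (2.12% of all genes) and 1 was lower (3.65% of all genes). After adjustment over all 12148 genes by the Benjamini-Hochberg method, 0 members were higher (0.247% of all genes) and 1 was lower (0.7% of all genes), the same gene, *Ndufa4l2*. In 2 members, *Ndufa4l2* and *Cox7a2l*, all mutant values were below all control values (3.14% of all genes), and in 0 members all were above (2.13% of all genes).

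The intervals show how large a change could have gone unseen, if the 8 libraries are independent. They are intervals of single genes, not adjusted for the number of genes. Libraries of a genotype that share a further number in their titles may not be independent, and the intervals could then be too narrow. For 69 of the 77 subunits the 95% interval of the fold change lay inside 1.5-fold in both directions, where this held for 48.2% of all genes. The 8 subunits whose interval passed 1.5-fold were *Ndufa5* and *Ndufa6* of complex I, *Uqcrc1* of complex III, *Cox6b2*, *Cox6c*, *Cox7a1* and *Cox8a* of complex IV, and *Atp5h* of complex V. The spread within a genotype was similar to that of other genes, with a median SD of 0.264 on the log2 scale for the members and 0.283 for all genes.

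**Figure D2:**
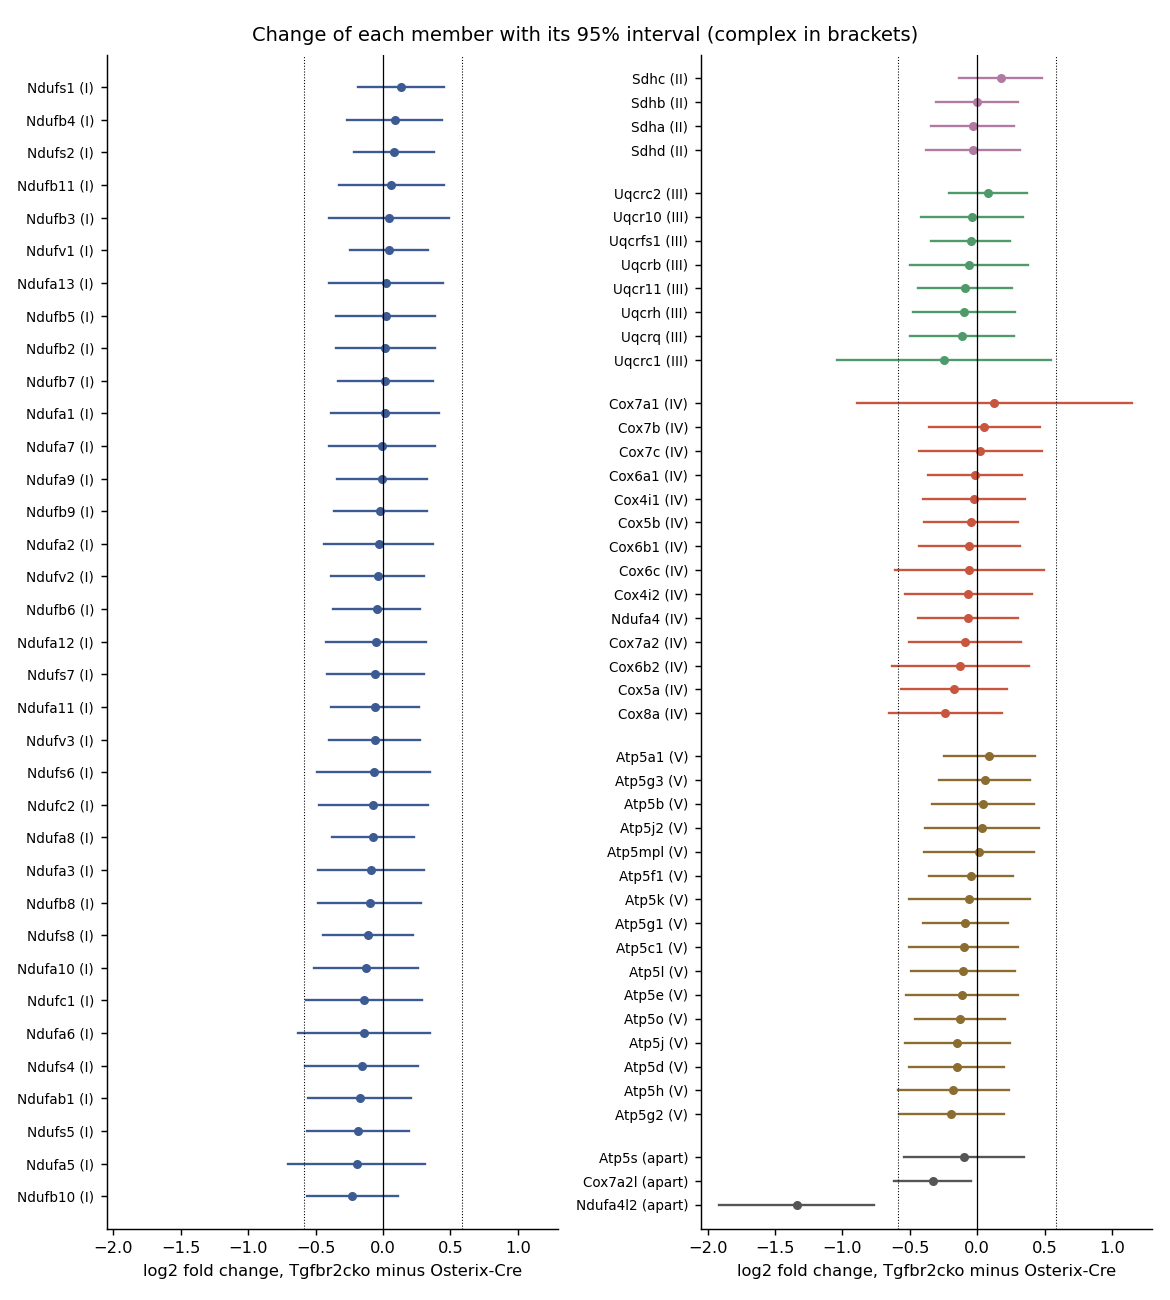
Log2 fold change (Tgfbr2cko minus Osterix-Cre) of each of the 80 members with its 95% interval from limma-trend, complex I on the left and the other members on the right; dotted lines mark 1.5-fold in each direction. The intervals of all 77 subunits cross 0, while those of Ndufa4l2 (-1.91 to -0.77) and Cox7a2l (-0.62 to -0.05) do not.

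In complex I, 0 of the 35 subunits passed p under 0.05 in either direction. The 6 nuclear core subunits in the table, which form the path of the electrons, had log2 fold changes from -0.11 to 0.13, and the 29 accessory subunits from -0.23 to 0.09. *Ndufa1* had log2 CPM of 7.92, 7.56, 7.28 and 7.71 in control pulp and 7.66, 7.51, 7.31 and 8.04 in mutant pulp, a difference of 0.01 (SE 0.18, adjusted p = 0.998). The genotypes overlapped throughout, and the mean difference fell below 0 when library 56, the highest, was left out (-0.12). *Ndufs1* had the largest mean rise, 0.13 (95% interval -0.19 to 0.45). *Ndufb10*, an accessory subunit of the membrane arm, had the largest mean fall, with 7.57, 7.41, 7.32 and 7.05 in control pulp against 7.39, 7.13, 6.99 and 6.93 in mutant pulp (-0.23, SE 0.16, adjusted p = 0.841). Its values overlapped between the genotypes.

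The 4 subunits of complex II, which also works in the tricarboxylic acid cycle, had 0 at p under 0.05, and their median deviation from each gene's mean stayed between -0.16 and 0.16 over the 8 libraries. *Sdha*, the flavoprotein that oxidises succinate, had log2 CPM of 8.11, 8.51, 8.34 and 8.36 in control pulp and 8.37, 8.38, 8.31 and 8.13 in mutant pulp (-0.03, SE 0.14, adjusted p = 0.998). The genotypes overlapped. The membrane anchors lay on either side of 0, *Sdhc* at 0.17 (95% interval -0.13 to 0.48) and *Sdhd* at -0.03 (-0.38 to 0.31).

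In complex III, 0 of the 8 subunits passed p under 0.05. *Uqcrc1*, a core protein on the matrix side, had the lowest mean change of any subunit and was also unsteady between libraries. Its log2 CPM was 5.90, 5.92, 5.36 and 6.57 in control pulp and 6.37, 4.38, 5.98 and 6.02 in mutant pulp (-0.25, SE 0.37, adjusted p = 0.995). One library, *Tgfbr2cko* 54 with 255 reads, lay far below the other mutants, and without it the difference was 0.19. The partner core protein *Uqcrc2* was steady, at a difference of 0.08 (95% interval -0.21 to 0.37).

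Complex IV carries most of the tissue isoforms, and its 14 subunits also had 0 at p under 0.05. *Cox8a* had the largest mean fall, from 8.93 ± 0.27 in control pulp to 8.70 ± 0.32 in mutant pulp (SD, n = 4 per genotype; -0.24, SE 0.20, adjusted p = 0.911). *Cox4i2*, the isoform known from lung and from vascular mural cells, had log2 CPM of 7.59, 7.65, 7.36 and 7.10 in control pulp and 7.68, 7.54, 7.57 and 6.64 in mutant pulp (-0.07, 95% interval -0.54 to 0.41). It was well expressed in the pulp: per kilobase it made 22.3% ± 1.4 of the sum of *Cox4i2* and *Cox4i1* in control pulp and 22.1% ± 4.8 in mutant pulp (SD, n = 4 per genotype). *Cox6b2*, known as the testis isoform, made 13.4% ± 2.2 of its sum with *Cox6b1* in control pulp and 12.9% ± 1.7 in mutant pulp. *Cox7a1* was near the limit of counting, with 6 to 25 reads per library, and made 1.11% ± 0.49 and 1.28% ± 0.52 of its sum with *Cox7a2*. Of 20 skeletal muscle markers, 2 were in the table, and 0 of them passed p under 0.05 (1 was lower without library 51, 53 or 56). The differences of *Cox4i1*, *Cox6a1*, *Cox6b1*, *Cox7a2*, *Cox7b* and *Ndufa4* ranged from -0.09 to 0.05.

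The 16 members of complex V had log2 fold changes from -0.19 to 0.09, with 0 at p under 0.05. The 5 subunits of the catalytic head ranged from -0.15 to 0.09, and the 3 genes for the c subunit, which forms the rotor ring, from -0.19 (*Atp5g2*) to 0.06. *Atp5b* had log2 CPM of 10.36, 10.58, 10.61 and 10.43 in control pulp and 10.56, 10.61, 10.48 and 10.50 in mutant pulp (0.04, SE 0.18, adjusted p = 0.998), so the most abundant catalytic subunit had a range of 0.25 over all 8 libraries. *Atp5a1*, the alpha subunit, had the largest mean rise, 0.09 (95% interval -0.25 to 0.43). The inhibitor of the reverse reaction, *Atpif1*, which the rule leaves out by its symbol, was at 7.85 ± 0.42 in control pulp and 7.90 ± 0.37 in mutant pulp (SD, n = 4 per genotype; 95% interval of the difference -0.44 to 0.54).

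*Ndufa4l2* was lower in *Tgfbr2cko* pulp than in control pulp. Its log2 CPM was 5.30, 4.83, 4.12 and 4.66 in control pulp, from 386, 275, 165 and 258 reads, and 3.94, 3.33, 3.06 and 3.22 in mutant pulp, from 136, 123, 72 and 126 reads. Every mutant library was below every control library, with 0.18 between the highest mutant and the lowest control. The log2 fold change was -1.34 (SE 0.27, 95% interval -1.91 to -0.77), which is a mutant level of 0.395 times the control level (0.266 to 0.588). Limma-trend gave p = 0.000221 (adjusted p = 0.0289) and exact permutation of the 8 libraries p = 0.0286, the smallest that test can give. The direction held and the unadjusted p stayed under 0.05 with each library left out in turn, from -1.54 to -1.15, but the adjusted p ranged from 0.00905 to 0.0998 and was under 0.05 in 3 of these 8 fits. The titles carry a further number, whose meaning is not given. Libraries 49 and 50, 53 and 56, and 54 and 55 share theirs within a genotype and may not be independent of each other. With libraries of one number averaged (3 controls against 2 mutants) the log2 fold change was -1.23 and the adjusted p was 0.0567, past the threshold. The only number found in both genotypes, 2, belongs to control library 51 (4.12) and mutant libraries 54 (3.33) and 55 (3.06), and a fit with the number as a block, whose genotype effect rests on these 3 libraries, gave -0.93 (adjusted p = 1.00). In bulk RNA, fewer cells of a type and less RNA per cell cannot be told apart.

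*Ndufa4* itself had log2 CPM of 8.39, 8.14, 7.91 and 7.78 in control pulp and 8.28, 7.86, 7.74 and 8.05 in mutant pulp, and the genotypes overlapped. The log2 ratio of *Ndufa4l2* to *Ndufa4* within a library, which no scaling of the library changes, was -3.09, -3.30, -3.79 and -3.12 in control pulp and -4.34, -4.53, -4.68 and -4.83 in mutant pulp. The ratio fell by 1.27, with no overlap (two-sided exact permutation test, p = 0.0286, or 0.143 after Benjamini-Hochberg adjustment over the 5 isoform ratios compared). Per kilobase, *Ndufa4l2* made 6.21% ± 1.20 of the sum of both genes in control pulp and 2.64% ± 0.37 in mutant pulp (SD, n = 4 per genotype). The last 32 bases of *Ndufa4l2* overlap *Shmt2*, a serine metabolism gene on the opposite strand. *Shmt2* had a difference of -0.14 (SE 0.16, 95% interval -0.48 to 0.21).

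Markers of other cell types moved beside *Ndufa4l2*. Of the 8 pericyte markers listed, 6 had a lower mean in mutant pulp and 3 were lower at p under 0.05: *Rgs5* (-0.83, adjusted p = 0.0212), *Pdgfrb* (-0.69, adjusted p = 0.282) and *Notch3* (-0.49, adjusted p = 0.424). *Rgs5* had log2 CPM of 6.87, 7.18, 7.01 and 6.83 in control pulp and 6.46, 6.21, 5.93 and 5.97 in mutant pulp, with no overlap. The others did not pass, among them *Kcnj8* (-0.06), *Abcc9* (-0.12), *Cspg4* (0.26) and *Mcam* (0.02), and *Higd1b* was close to the limit of counting in both genotypes. The summed level of the 8 markers was 687 to 962 CPM in control pulp and 876, 709, 684 and 420 CPM in mutant libraries 53 to 56, so library 56 alone lay far below the controls. Without library 56, the one rich in enamel matrix reads, 3 of the 8 markers had a lower mean, the median log2 fold change turned from -0.15 to 0.03, and *Rgs5* and *Pdgfrb* were still lower at p under 0.05, while *Ndufa4l2* was at -1.28 (adjusted p = 0.0456). Of 4 endothelial markers 1 was lower at p under 0.05 (*Tek*, -0.64, adjusted p = 0.124), or 2 with *Pecam1* when library 49 or 55 was left out. Of 5 macrophage markers 4 were lower at p under 0.05, *Adgre1*, *Cd68*, *Lyz2* and *Ptprc*, with *Lyz2* the furthest (-1.19, adjusted p = 0.028). The summed level was 164 to 234 CPM in control pulp and 136 to 187 CPM in mutant pulp for the endothelial list, and 817 to 970 CPM for the macrophage list in control pulp against 737, 614, 512 and 316 CPM in libraries 53 to 56. Without library 56 the macrophage markers lower at p under 0.05 were 2 (*Lyz2* and *Ptprc*) instead of 4, as also without library 51 or 55, and the median log2 fold change was -0.37 instead of -0.70. Of the 6 odontoblast markers, 2 were lower at p under 0.05 (*Col1a2*, -1.22, adjusted p = 0.316, and *Nes*, -0.81, adjusted p = 0.235), the median log2 fold change was -0.76, and the summed level was 60446 to 133371 CPM in control pulp and 36115 to 74011 CPM in mutant pulp. Of 6 enamel epithelium markers 1 was lower at p under 0.05 (*Klk4*, -2.71, adjusted p = 0.000136), while the median log2 fold change was 0.50 and *Amelx*, *Ambn* and *Enam* had means higher by 1.39, 1.45 and 1.63 without passing, with a summed level of 3958 to 23131 against 4115 to 193096 CPM. The only one of 6 brown adipocyte markers in the table, *Fabp4*, was lower at p under 0.05 (-1.40, adjusted p = 0.0794), at 3.72 to 6.11 against 1.26 to 2.88 CPM. Of 5 red blood cell markers 0 passed. The Schwann cell list had 2 of its 5 markers in the table, and they moved in opposite directions. *Mbp* was higher at p under 0.05 (0.57), though not without library 50, and the other had a lower mean (-0.35) without passing. Their summed level was 17.3 to 24.4 CPM in control pulp and 23.5 to 24.4 CPM in mutant pulp. Leaving out library 56 also changed the counts of the enamel and red blood cell lists, where 2 (*Klk4* and *Mmp20*) and 3 (*Alas2*, Hba-a1 and Hba-a2) were then lower at p under 0.05. Without library 53 or 54 an enamel marker, *Ambn* or *Enam*, was higher. The part of these cells in the *Ndufa4l2* result was not tested. *Cox4i2*, the other member known from mural cells, overlapped between the genotypes.

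*Cox7a2l* was slightly lower in mutant pulp, without passing the adjusted threshold. Its log2 CPM was 6.73, 6.86, 6.85 and 6.97 in control pulp and 6.62, 6.44, 6.63 and 6.38 in mutant pulp, from at least 857 reads per library. The groups did not overlap, with the lowest control, library 49, at 0.10 above the highest mutant, library 55. The log2 fold change was -0.33 (SE 0.13, 95% interval -0.62 to -0.05, limma-trend p = 0.0256, adjusted p = 0.434, exact permutation p = 0.0286). Left out in turn, libraries 50, 51, 52 and 54 each took the unadjusted p past 0.05, to at most 0.0669. The log2 ratio of *Cox7a2l* to *Cox7a2* overlapped between the genotypes, at -0.83 ± 0.42 in control pulp and -1.07 ± 0.26 in mutant pulp (SD, n = 4 per genotype; exact permutation p = 0.371, adjusted p = 0.905). A processed pseudogene, *Gm6969*, matches 342 of the 1076 bases of the *Cox7a2l* transcript at 98% identity, and its part in the counts was not tested. *Atp5s*, a coupling factor of the ATP synthase, had a difference of -0.10 (95% interval -0.54 to 0.34).

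**Figure D3:**
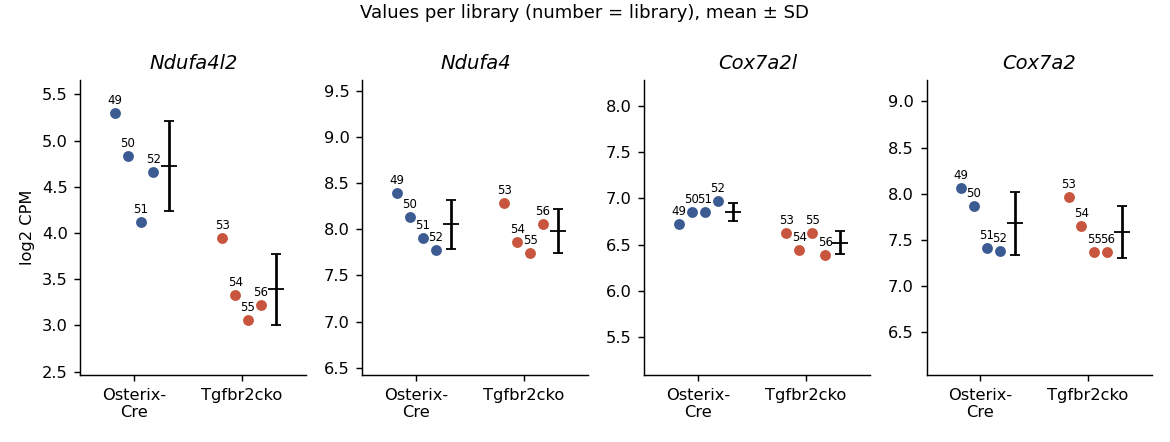
Log2 CPM of Ndufa4l2, Ndufa4, Cox7a2l and Cox7a2 in each library (points, with the library number), with the mean and SD of the 4 libraries per genotype in black; the y axes of the panels differ in position but span the same 3.2 log2 units. The mutant values of Ndufa4l2 (3.06 to 3.94) and Cox7a2l (6.38 to 6.63) lie below all control values, and those of Ndufa4 and Cox7a2 overlap with the controls.

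The members shared a pattern over the libraries that ran across both genotypes. A gene's deviation is its log2 CPM minus its own mean over the 8 libraries. The median deviation of the 80 members was 0.33, 0.15, -0.12 and -0.23 in control libraries 49 to 52 and 0.25, 0.00, -0.17 and -0.18 in mutant libraries 53 to 56. Libraries 49, 50 and 53 were therefore high and libraries 51, 52, 55 and 56 low, in both genotypes alike. Over all 12148 genes the medians were between -0.23 (library 56) and 0.12 (library 53), and library 49 had 0.00. In library 56 the members, at -0.18, were thus not lower than all genes. In 62 of the 80 members (77.5%) library 49 was the highest control, against 24.8% of all genes, and in 69 (86.2%) both libraries 49 and 50 were above 51 and 52, against 28.4% of all genes. Library 53 was the highest mutant in 66 members (82.5%), against 40.6% of all genes. These patterns were chosen after the values were seen and are given as counts, without a test.

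**Figure D4:**
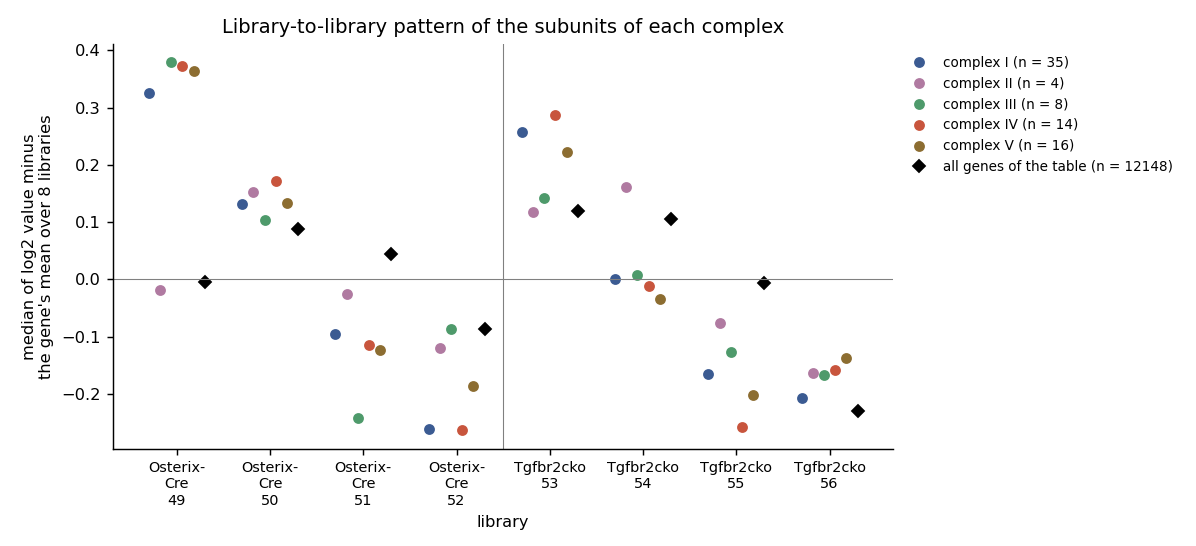
Median over the subunits of each complex, and over all 12148 genes (diamonds), of the log2 value minus the gene's mean over the 8 libraries; libraries have no order within a genotype. Complexes I, III, IV and V share a pattern, with 0.33 to 0.38 in library 49, while complex II (-0.02 there) follows all genes more closely.

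The share of reads that fell on the members showed the same spread. It was 1.99%, 1.83%, 1.56% and 1.46% in control pulp and 1.94%, 1.68%, 1.49% and 1.49% in mutant pulp, or 1.71% ± 0.24 and 1.65% ± 0.21 (SD, n = 4 per genotype), so the groups differed by less than either SD. With *Amelx*, *Ambn* and *Enam* taken out of the total, the shares were 1.73% ± 0.26 and 1.75% ± 0.18, and the order of the means turned.

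Transcript length moved with this pattern, and its part in it was not tested. The members had a median principal transcript of 752 bases, where all genes had 2981. The 53 members of at most 1000 bases had median deviations of 0.37, 0.15, -0.13 and -0.25 in control pulp and 0.26, -0.02, -0.19 and -0.18 in mutant pulp. All 859 genes of that length had nearly the same, at 0.31, 0.14, -0.06 and -0.26 in control pulp and 0.26, 0.05, -0.12 and -0.29 in mutant pulp. The 15 members over 1500 bases stayed closer together, between -0.16 and 0.12. The median transcript of complex II, 2066 bases, was the longest of the 5 complexes. After each library was corrected for length and GC content together, the median log2 fold change of the members was -0.01 (all genes 0.01), 49 of the 80 means were below 0 instead of 59 (73.8%, against 51.2% of all genes), and *Ndufa4l2* was at -1.30 (adjusted p = 0.0194). The count of lower means also changed with single libraries, from 29 without library 49 to 71 without library 52 or 53, and was 38 with libraries of one title number averaged.

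**Figure D5:**
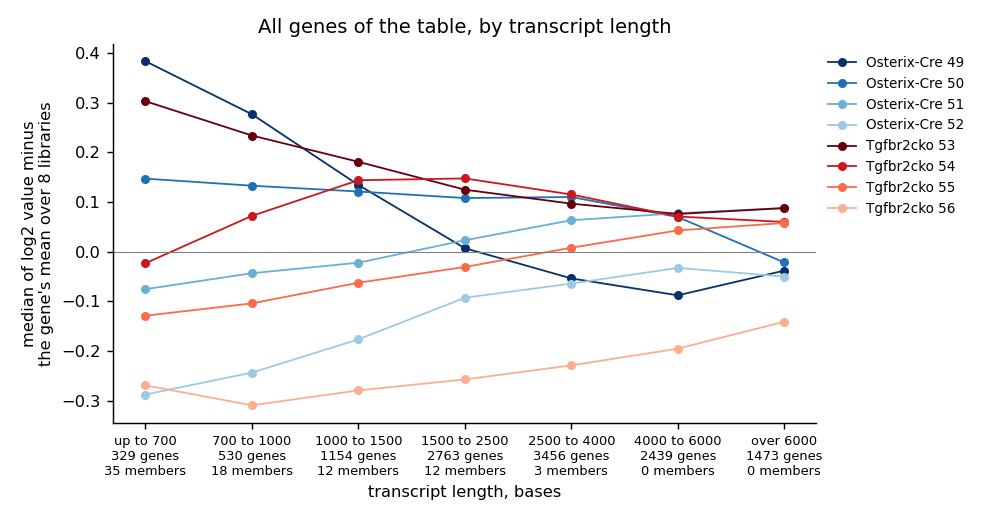
Median deviation of all 12148 genes in each library, in 7 classes of transcript length, with the number of genes and of members per class under the axis. Among genes of up to 700 bases, where 35 of the 80 members fall, libraries spread from -0.29 (Osterix-Cre 52) to 0.38 (Osterix-Cre 49), and in the class of 2500 to 4000 bases from -0.23 to 0.12.

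Other genes of the pathway were counted from lists of assembly factors, regulators and neighbouring steps. Of the 49 assembly factors in the table (16 for complex I, 4 for II, 6 for III, 19 for IV and 4 for V), 0 passed p under 0.05, and without library 56 *Ndufaf5* and *Coa4* did, both higher. Cytochrome c, *Cycs*, and cytochrome c1, *Cyc1*, differed by -0.23 (95% interval -0.61 to 0.15) and 0.12 (-0.20 to 0.44). Of 12 regulators, 1 was lower at p under 0.05 and 0 higher. This was *Ppargc1b*, a coactivator of respiratory chain genes, with log2 CPM of 3.11, 2.97, 3.27 and 3.31 in control pulp and 2.62, 2.37, 2.29 and 2.06 in mutant pulp. Its values did not overlap, and the log2 fold change was -0.83 (SE 0.23, limma-trend p = 0.00293, adjusted p = 0.136, exact permutation p = 0.0286). *Ppargc1a*, *Esrrb* and *Esrrg* were not analysed here.

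In the tricarboxylic acid cycle 1 of 13 genes was higher at p under 0.05 and 0 lower, namely *Suclg2*, a succinyl-CoA ligase subunit (0.32, adjusted p = 0.587), which passed in 2 of the 8 fits with a library left out. Without library 49 the only gene to pass was *Ogdh*, and without library 54 *Suclg1*, both lower. Of 13 carriers and import receptors of the mitochondrial membranes 1 was higher and 0 lower, the import receptor *Tomm70a* (0.39, adjusted p = 0.587), which passed in 3 of these 8 fits. Without library 53 *Tomm20* was higher as well. Of 4 pyruvate dehydrogenase genes 0 passed. Of the 75 mitochondrial ribosomal protein genes 0 were higher and 1 was lower, *Mrpl48* (-0.63, adjusted p = 0.248), and without library 49 or 56 another 1 or 2 were higher. The median log2 fold change of that list was -0.03, and over all genes it was -0.01.

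The members lie on 19 chromosomes, with at most 7 on one. RefSeq promoters (GRCm38.p6, 250 bases before the transcript start to 50 after it) were matched to 66 of the 80 members, and 4 motifs were searched on both strands: GCATGCGC for NRF1, CCGGAAGT for ETS factors, AAGATGGCG for YY1 and TNAAGGTCA for the estrogen-related receptors (ERR). The NRF1 letters stood in 10 of the members' 71 promoters (14.1%), against 2.71% of all 32851 promoters and 5.04% of the promoters of genes in the table. The YY1 letters stood in 7 (9.86%, against 1.4% and 2.97%), the ERR letters in 3 (4.23%, against 1.28% and 0.683%) and the ETS letters in 4 (5.63%, against 3.89% and 7.89%). At least 1 of the 4 stood in 23 of the 66 members (34.8%), against 18.3% of the matched genes of the table. These are matches of letters, not sites. The windows shown are those of the 3 members with the highest control level for the NRF1 and for the YY1 letters, read along the gene, with the motif in capitals.
Uqcr11, chr10:80406794-80406849 (-): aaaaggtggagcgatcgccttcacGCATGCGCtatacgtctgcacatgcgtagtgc
Cox6a1, chr5:115349089-115349144 (-): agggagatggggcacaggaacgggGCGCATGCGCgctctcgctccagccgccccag
Ndufa11, chr17:56717678-56717733 (+): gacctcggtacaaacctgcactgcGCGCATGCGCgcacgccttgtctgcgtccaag
Atp5j, chr16:84835032-84835088 (-): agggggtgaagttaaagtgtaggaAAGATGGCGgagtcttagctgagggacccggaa
Ndufs7, chr10:80249449-80249498 (+): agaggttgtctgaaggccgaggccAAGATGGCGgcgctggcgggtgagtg
Atp5j2, chr5:145191492-145191542 (-): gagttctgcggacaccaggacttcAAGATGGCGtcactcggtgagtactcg
The NRF1 letters begin 4 bases before the transcript start in *Uqcr11*, and on both strands in *Cox6a1* and *Ndufa11*, where the overlapping matches begin 162 (other strand) and 160 (gene strand) bases before it and 60 and 58 bases before it. The YY1 letters begin 88 bases before the start in *Atp5j*, and 24 and 23 bases after it in *Ndufs7* and *Atp5j2*. The *Ndufa4l2* promoter was not among those matched.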

How the data were processed

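RNA of the 8 deposited pulp samples was sequenced by the authors after low-input amplification (SMART-Seq HT, Nextera XT). A figure legend of the study gives a sample number for its RNA-Seq that differs from the 4 libraries per genotype used here. Reads were aligned with HISAT2 2.1.0, after fastp 0.21.0 as the submitters' processing notes list it, and counted with featureCounts of Subread 2.0.1 on GENCODE M14. The notes name GRCm38.p5, while the methods write GRCh38. Genes were kept by the CLEAR workflow, and the deposited log2 values come from voom, which adds 0.5 to each count, divides by the library's total and takes log2 (log2 CPM). Strandedness of the counting is not given in the sources used here.

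All 97184 values turned back into whole reads, within 3.61e-08 of a whole number. Of 12148 identifiers, 12144 matched a symbol in GENCODE M21 (GRCm38), compared without version. Genotypes were compared on the log2 values in R 4.3.3 with limma 3.58.1 (intensity trend, two-sided), with p adjusted over all 12148 genes by Benjamini-Hochberg, and single ratios by an exact permutation test over 70 arrangements. The test was checked on simulated data. Transcript length is that of the principal transcript (8799 genes) or else the longest one. Pseudogene copies were found with BLAST+ 2.17.0. The 95% intervals measure the spread between libraries, also for genes with few reads, and amplified reads are not independent molecules. Figures were drawn with matplotlib 3.10.9.

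The members and lists were chosen with earlier results of these data known. Named are *Ndufa1*, *Sdha* and *Uqcrc1*, all members with p under 0.05, in each complex the largest mean rise, the largest mean fall and the highest level, the isoform members and *Atpif1*, and from the other lists the genes with p under 0.05; markers and the other genes named were taken after their values were seen. Alternatives were no intensity trend, voom weights, library weights, quantile normalization, median centring, log2 of CPM plus 1, a mean log2 of at least 3, a length and GC correction, libraries of one title number averaged (3 controls against 2 mutants), each library left out, and, added after the data were seen, the enamel matrix genes in the model, the title number as a block and the isoform ratios.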

Additional observations from a re-analysis of the deposited data

Results flagged for a closer look

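In the samples of 1 genotype, a value was singled out when its gap to the nearest other value, divided by the range of the 4, passed Dixon's 95% limit for 4 values. Of 54 groups looked at for the 26 genes named by rule and for the share of reads, 2 passed, and about 1 in 20 does so by chance. *Cox4i2* in library *Tgfbr2cko* 56, at 6.64 log2 CPM, lay below the other mutants, which were at 7.54, 7.57 and 7.68. *Atp5a1* in library Osterix-Cre 49, at 9.21, lay below the other controls, at 9.50 to 9.55. Library 56 is the one with 19.2% of its reads on enamel matrix genes, and library 49 is the one where short transcripts were highest. Their part in these values was not tested.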

How the results depend on the processing

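The number of members with p under 0.05 was 2 or, with libraries 50, 51, 52 or 54 left out, 1 (range 1 to 2), and 1 after the length and GC correction, where *Cox7a2l* was at -0.30, and with the title number as a block, where it was at -0.31. The number with an adjusted p under 0.05 was 1 and became 0 without an intensity trend, with title numbers averaged, with the enamel matrix genes in the model and with the title number as a block, where the adjusted p of *Ndufa4l2* was 0.0552, 0.0567, 0.0655 and 1.00, and was 0 to 1 with a library left out (0 without library 49, 50, 52, 54 or 55). *Ndufa4l2* was at -0.93 with the block and between -1.54 and -1.15 otherwise, and counted as altered in all fits run. The median log2 fold change of the members lay within 1 SD of the library medians of the value reported, but from -0.15 (without library 53) to 0.03 (without library 49), at 0.0051 with title numbers averaged and at 0.023 with the block. The difference in the share of reads moved by less than 1 SD, but changed sign without library 49 (0.031 percentage points, against -0.061 reported) and was -0.14 without library 52 and -0.16 without library 53.

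Small differences changed sign. With library weights *Ndufa1* was at -0.035 and *Sdhd* at 0.029, after quantile normalization *Sdha* was at 0.00074 and *Sdhd* at 0.0030, with title numbers averaged *Sdhd* was at 0.0077, and with the enamel matrix genes in the model *Ndufa1* was at -0.11, *Sdha* at 0.049, *Sdhd* at 0.082 and *Cox7a1* at -0.026. With the title number as a replicate block *Sdha* was at 0.0023, *Ndufs1* at -0.021 and *Sdhd* at 0.13. That fit, chosen after the data were seen, has 3 residual degrees of freedom and takes the genotype effect from library 51 against 54 and 55, and since the meaning of the number is not given it is no sign that the samples are paired. With each library left out, *Ndufa1* ranged from -0.12 to 0.12, *Sdha* from -0.10 to 0.026, *Sdhd* from -0.12 to 0.071, *Uqcrc1* from -0.48 to 0.19 and *Cox7a1* from -0.19 to 0.44. The causes were not tested. Of the 80 members 78 had at least 100 reads in every library, the others being *Cox7a1*, at 6 to 25 reads, and *Ndufa4l2*, at 72 reads in library 55. The effect of depth was not tested.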
